A study of Saccharomyces cerevisiae with 12 samples.

Results

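The data described here compare *mrn1Δ* with wild-type budding yeast during fermentative growth in glucose. They are the 6 libraries of that growth condition out of 12 in the series, 3 from *mrn1Δ* and 3 from wild-type, chosen by genotype and medium as the sample labels give them. Both genotypes are BY4741, a haploid laboratory strain of mating type a that lacks *HIS3*, *LEU2*, *MET17* and *URA3* function, and *mrn1Δ* carries in addition a kanamycin selection cassette in place at the *MRN1* locus. Cultures were grown in YEPD, a rich medium with 2% glucose, to an OD600 of 0.6, and total RNA was depleted of ribosomal RNA and sequenced in single-end reads. The other 6 libraries, 3 of each genotype, were taken 20 minutes after cells were moved to medium with 2% ethanol and 2% glycerol, and they are used here only to see whether a difference in glucose was also there after the shift. The methods describe triplicate cultures of each strain and 1 strain construction, so that the spread between libraries is that between cultures of 1 *mrn1Δ* strain and not between independent deletions. Whether the glucose and shifted libraries came from the same cultures is not given in the sources used here. All 5917 coding sequences were analysed, of which 5785 had enough counts to be tested. Genes drawn with a label in the study's figures and genes annotated to the cell wall are set aside below, except where a labelled gene belongs to a pathway that is described as a whole.

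Mrn1 is an RNA-binding protein with RNA recognition motifs, and a large share of the messages it binds encode cell wall and plasma membrane proteins. Proteins of this kind can change how fast a bound mRNA is degraded, and when they are lost other genes can change as well through the products of those messages. In glucose budding yeast obtains most of its energy by fermentation, while its mitochondria continue to make amino acid precursors such as those of leucine, isoleucine and valine.

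Library totals in estimated counts were 20018557 to 24214974 (median 21933950) for the 3 *mrn1Δ* libraries and 16231552 to 26542190 (median 25752891) for the wild-type ones, of which replicate 3 was the shallowest. Levels are given below in normalized CPM, in which counts are divided by TMM-scaled library totals. Before that scaling 3 counts correspond to between 0.113 and 0.185 CPM, a floor that covers counting error only. Wild-type replicate 1 stood apart from the other 5 libraries. Its median absolute log2 difference to them was between 0.16 and 0.22, where all other pairs lay between 0.08 and 0.14. Its deviation from the mean of the 6 libraries fell with coding length, from a median of 0.18 (log2) in the shortest sixth of the genes to -0.19 in the longest sixth, with a Spearman correlation of -0.609 across genes, which are not independent replicates. The other 5 libraries had correlations between 0.00415 and 0.479, the highest in *mrn1Δ* replicate 2. The genotype difference accordingly had a median log2 fold change of 0.10 in the longest sixth and -0.13 in the shortest sixth, and 0.04 and -0.03 when wild-type replicate 1 was left out. Results are therefore given with and without that library, and, where it bears on them, from a fit in which each library's trend against coding length was removed. These last fits were chosen after the data were seen.

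**Figure D1:**
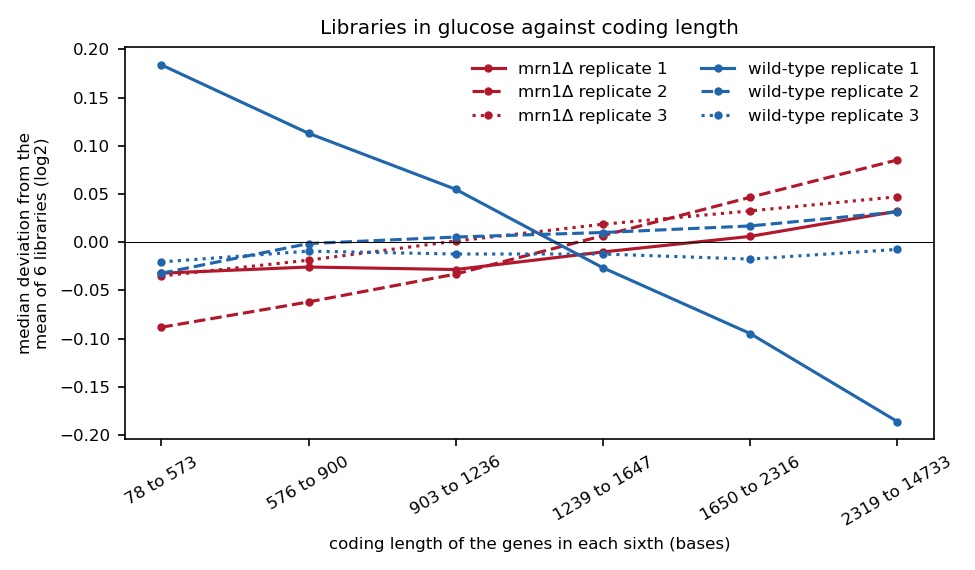
Median deviation of each library from the mean of the 6 glucose libraries (log2 of normalized CPM plus 1, vertical axis) in 6 equal groups of tested genes by coding length in bases (horizontal axis), with *mrn1Δ* in red and wild-type in blue. Wild-type replicate 1 runs from 0.18 in the shortest to -0.19 in the longest genes, while the other 5 libraries stay between -0.09 and 0.09.

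*MRN1* (YPL184C, chrXVI:195950-197788 on the minus strand of R64) had 0.65, 0.0964 and 0.214 normalized CPM in the *mrn1Δ* libraries, from 2 to 15 counts each, against 98.2, 137 and 124 in wild-type (log2 fold change -8.46, standard error 0.31, adjusted p = 6.7e-06). The genes on each side of the deleted locus were not called. *UIP4*, which encodes a nuclear envelope protein, had 2.64, 3.47 and 2.94 normalized CPM in *mrn1Δ*, against 4.64, 4.06 and 4.79 in wild-type, a log2 fold change of -0.58 (adjusted p = 0.2), and *RTC6*, a mitochondrial ribosomal protein gene on the other side, one of -0.17 (adjusted p = 0.595). The difference at *UIP4* was itself different after the shift, where it was 0.58 (interaction adjusted p = 0.0032). Several markers, though not all, fitted the labelled strain in both genotypes. *LEU2* had at most 1 count and *MET17* and *URA3* at most 4 counts in any glucose library, whereas *HIS3*, of which BY4741 carries a partial deletion, had 1019 to 1126 counts in *mrn1Δ* and 892 to 1545 in wild-type. The a-specific genes *STE2* and *STE6*, for the pheromone receptor and exporter, had 2463 to 8038 counts, and the α-specific *MF(ALPHA)1* had 4 to 14 in *mrn1Δ* and 3 to 8 in wild-type. Not all markers separated in this way. The α-specific *SAG1* had 484 to 641 counts in *mrn1Δ* and 438 to 653 in wild-type. In that order *MF(ALPHA)2* had 128 to 149 and 110 to 186, and *STE3* 38 to 71 and 60 to 79. The a-specific *MFA1* had 30 to 38 and 27 to 63, and *ASG7* 79 to 130 and 86 to 164. Over 7 a-specific genes the summed level was 558 to 740.2 normalized CPM in *mrn1Δ* and 516 to 571 in wild-type, over 4 α-specific genes 35.0 to 42.2 normalized CPM in *mrn1Δ* and 32.3 to 37.3 in wild-type, and over 10 genes of meiosis 74.3 to 79.9 normalized CPM in *mrn1Δ* and 73.8 to 85.5 in wild-type, and edgeR called none of these genes, while DESeq2 called *STE6* higher, at 0.41 (DESeq2 adjusted p = 0.025).

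In edgeR's quasi-likelihood test *mrn1Δ* had higher levels than wild-type at 34 genes and lower levels at 19, at a Benjamini-Hochberg adjusted p under 0.05 (a gene is named as called below when it passed this), which is 0.588% and 0.328% of the 5785 tested genes and 0.916% in both directions. Counts of edgeR calls in the gene lists below are to be read beside these shares. The median log2 fold change over all tested genes was -0.02, and 2671 of the 5785 had a positive value. Without adjustment p was under 0.05 at 878 genes. All 53 called genes had groups that did not overlap, as had 21.9% of the tested genes. Of the 53 calls, 52 were also made without wild-type replicate 1 and 51 with the length trend removed. How many genes were called depended on single libraries: the calls numbered 13 higher and 6 lower without wild-type replicate 3, 18 and 8 without *mrn1Δ* replicate 1, 15 and 8 without *mrn1Δ* replicate 2, 43 and 11 without *mrn1Δ* replicate 3, and 63 and 24 without wild-type replicate 2. A second test, DESeq2's Wald test on the same genes, called 151 higher and 54 lower, 2.61% and 0.933% of those tested, and these included all 53. It is used below only to describe gene groups, and each of its calls is named as such. Of the 53 called genes, 38 are labelled in the study's figures and 3 more carry a cell wall annotation, *PHO5*, *NFG1* and the deleted *MRN1* itself. That leaves 12, of which 3 were higher and 9 lower. The 19 lower genes, here and in the counts below, include *MRN1*. The genes called higher had a median coding length of 1524 bases and those called lower one of 1224 bases, beside 1236 over all tested genes.

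Leucine synthesis held the largest fall outside *MRN1* among well-counted genes. *LEU1* (YGL009C, chrVII:476313-478652 on the minus strand), which encodes isopropylmalate isomerase, the second step that is specific to leucine, had 157, 158 and 162 normalized CPM in *mrn1Δ*, against 718, 830.0 and 782 in wild-type. All 3 *mrn1Δ* libraries were far below all 3 wild-type libraries, and the level was 4.91-fold lower (log2 fold change -2.30, standard error 0.08, adjusted p = 1.2e-06). The transcription factor Leu3 controls many genes of this pathway, and in yeast it is switched on by α-isopropylmalate, the substrate that Leu1 consumes. Leu3 binds an inverted repeat, so the letters CCGGNNCCGG, which read the same on both strands, were searched in the 500 bases before each start codon. They occurred in 16 of 5892 windows, or 0.272%, and in 15 windows of tested genes. Of the 19 genes called lower, 5 had a match in the window (*LEU1*, *BAT1*, *GDH1*, *ILV5* and *FSF1*, 26.3%), and of the 34 called higher, 0 did. The 5 matches are shown here because these genes fell together, followed by those of *BAP2* and *ILV2*, whose transcripts were not called, with 10 bases on each side, the match in capitals, and coordinates and strand from R64. Each is read 5′ to 3′ on the strand of its gene.
LEU1 (chrVII:478850-478879): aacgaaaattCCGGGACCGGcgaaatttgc
BAT1 (chrVIII:517375-517404): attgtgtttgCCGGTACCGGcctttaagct
GDH1 (chrXV:1043427-1043456): aaccaatgcgCCGGAACCGGcccatgcatt
ILV5 (chrXII:839611-839640): gcggtctcctCCGGTACCGGttctgccacc
FSF1 (chrXV:832176-832205): gtactggcgtCCGGTACCGGagcgtaccag
BAP2 (chrII:376057-376086): ttttgtgggaCCGGAACCGGcatccacatt
ILV2 (chrXIII:483606-483635): ccggagcctgCCGGTACCGGcttggcttca
The match lies 217 bases before the start codon in *LEU1*, 147 in *BAT1*, 404 in *GDH1*, 377 in *ILV5* and 153 in *FSF1*, counted to its first base. A match is a string of letters and was not tested as a binding site. Of the 15 tested genes with a match, 5 were called lower, beside 0.328% of all tested genes, 9 had a negative log2 fold change and the median was -0.04. The ends of their range were *LEU1* and *GAL11*, a Mediator subunit gene, at 0.39 (adjusted p = 0.343).

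Of the enzymes of branched-chain amino acid synthesis, 10 were tested, 4 fell and 0 rose, beside 0.328% of all tested genes called lower and 0.588% called higher. Their median log2 fold change was -0.23 (-0.28 without wild-type replicate 1) beside -0.02 over all genes. *BAT1*, which encodes the mitochondrial aminotransferase of the last step, had 122, 129.7 and 135 normalized CPM in *mrn1Δ*, against 332, 386 and 338 in wild-type (log2 fold change -1.45, standard error 0.08, adjusted p = 2.1e-05). *ILV3*, dihydroxyacid dehydratase, had 789.8, 810.2 and 832 normalized CPM in *mrn1Δ*, against 1108, 1288 and 1141 in wild-type, with no overlap between genotypes (log2 fold change -0.55, standard error 0.08, adjusted p = 0.0123). *ILV5*, acetohydroxyacid reductoisomerase, had 1433, 1309.9 and 1367 normalized CPM in *mrn1Δ*, against 1806, 2012 and 1735 in wild-type, the smallest of the 4 falls (log2 fold change -0.44, standard error 0.08, adjusted p = 0.0479). The remaining 6 enzymes did not pass the test. Their log2 fold changes were -0.28 (adjusted p = 0.295) for *LEU4* and -0.08 (adjusted p = 0.727) for *LEU9*, the isopropylmalate synthases that make the molecule sensed by Leu3, -0.18 (adjusted p = 0.371) for the cytosolic aminotransferase *BAT2*, -0.11 (adjusted p = 0.541) for *ILV2* and -0.02 (adjusted p = 0.947) for *ILV6*, the subunits of acetolactate synthase, and 0.10 (adjusted p = 0.609) for threonine deaminase, *ILV1*. Both *LEU4* and *LEU9* share reads with other sequences. All but *ILV1* of the 10 enzymes had a negative log2 fold change, where 2671 of all 5785 tested genes had a positive one. The groups did not overlap in 5 enzymes, the 4 called ones among them, beside 21.9% of all tested genes. *LEU1* had the largest fall of the list. In the joint fit of all 12 libraries *ILV5* had an adjusted p of 0.0729. *LEU1* and *BAT1* kept their calls in all 6 fits that each left out 1 library. With 1 library left out at a time, the call of *ILV3* was lost without wild-type replicate 3 and without *mrn1Δ* replicates 1, 2 and 3, each left out alone, where the adjusted p reached 0.104. In such fits the call of *ILV5* was lost without wild-type replicates 2 and 3 and without *mrn1Δ* replicates 1, 2 and 3, each left out alone, where the adjusted p reached 0.438.

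Levels of different genes can be set side by side only per length, and in the deposited TPM the pathway changed its order. *LEU1* averaged 69.3 ± 0.762 TPM in *mrn1Δ* and 339 ± 35.7 TPM in wild-type (SD, n = 3 each), so that it lay below *LEU9* in *mrn1Δ* while in wild-type it lay within its spread of *ILV6*, which averaged 355 ± 55.7 TPM there. *LEU9* averaged 104 ± 4.47 TPM in *mrn1Δ* and 109 ± 19.0 TPM in wild-type. *BAT2* averaged 302 ± 15.4 TPM in *mrn1Δ* and 341 ± 21.4 TPM in wild-type and *BAT1* 114 ± 5.64 TPM in *mrn1Δ* and 310.5 ± 29.3 TPM in wild-type, so that the mitochondrial and the cytosolic aminotransferase were at similar levels in wild-type while *BAT1* was the lower of the pair in *mrn1Δ*. *ILV5* had the highest level of the list in both genotypes, 1201 ± 46.3 TPM in *mrn1Δ* and 1622 ± 118 TPM in wild-type.

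Genes tied to this pathway by transport or regulation did not move as a group. *OAC1*, which encodes an inner membrane carrier of oxaloacetate that also moves α-isopropylmalate, had 17.2, 17.3 and 17.3 normalized CPM in *mrn1Δ*, against 68.9, 68.1 and 64.4 in wild-type (log2 fold change -1.97, standard error 0.07, adjusted p = 1.2e-06), and the letters CCGGNNCCGG were not in its window. *LEU3* itself had 52.4, 55.1 and 54.3 normalized CPM in *mrn1Δ*, against 46.8, 61.6 and 56.1 in wild-type and was not called, at -0.03 (adjusted p = 0.901). The branched-chain permeases *BAP2* and *BAP3* and the permease *TAT1* had log2 fold changes of 0.17 (adjusted p = 0.314), 0.30 (adjusted p = 0.178) and 0.17 (adjusted p = 0.374), and *LEU5*, a mitochondrial carrier of coenzyme A, one of 0.10 (adjusted p = 0.649). Nitrogen assimilation held one further fall, that of *GDH1*, the glutamate dehydrogenase that makes the amino donor for transamination, with 171, 181 and 187 normalized CPM in *mrn1Δ*, against 309, 391 and 335 in wild-type (log2 fold change -0.95, standard error 0.09, adjusted p = 0.0013). *GDH1* shares reads with other sequences, as does its paralog *GDH3*. Of 25 tested genes of ammonium, glutamate and nitrogen catabolism 1 was called, the median was 0.04 (-0.06 without wild-type replicate 1), and the other end of the range was *DAL1*, allantoinase, at 0.28 (adjusted p = 0.415). *FSF1*, a gene of the sideroflexin family of mitochondrial carriers, had 124, 121 and 125 normalized CPM in *mrn1Δ*, against 159, 168 and 149 in wild-type, a small difference in which the groups did not overlap (log2 fold change -0.37, standard error 0.07, adjusted p = 0.0467). *OAC1* and *GDH1* kept their calls in all 6 fits that each left out 1 library. Among fits on 5 libraries the call of *FSF1* was lost without wild-type replicates 2 and 3 and without *mrn1Δ* replicates 1, 2 and 3, each left out alone, where the adjusted p reached 0.412.

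**Figure D2:**
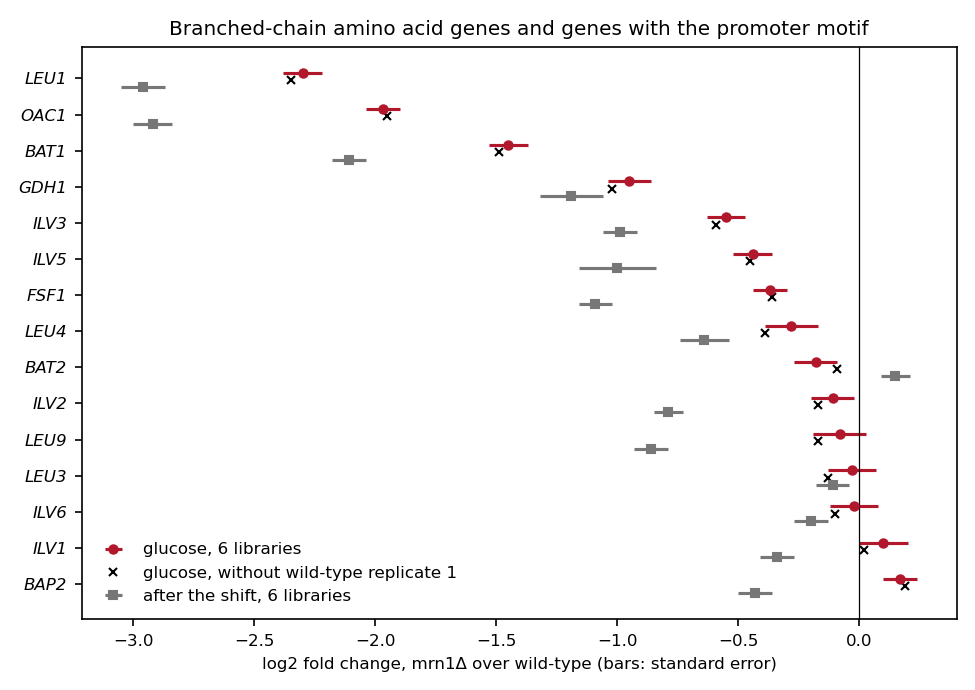
Log2 fold change of *mrn1Δ* over wild-type (horizontal axis, bars 1 standard error) for 15 genes of branched-chain amino acid synthesis, its carriers and regulators, and called genes with the promoter letters, in glucose with all 6 libraries (red), without wild-type replicate 1 (crosses) and after the shift (grey squares). *LEU1*, *OAC1* and *BAT1* lie below -1.4 in each case, and *LEU3* lies near 0.

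Gcn4, the activator of amino acid synthesis under starvation, binds TGACTC, and these letters were in 12.7% of all windows on either strand. They were in 9 of the 19 genes called lower, in 4 of the 34 called higher (11.8%) and in 8 of the 10 branched-chain enzymes. The 4 called enzymes belong both to the 19 and to the 10. Their positions were not compared with those of CCGGNNCCGG. Genes of other amino acid pathways and of purine and pyrimidine synthesis were looked at as well. Whether Gcn4 had a part in any of these differences was not tested. Of 15 tested genes of arginine metabolism 1 rose, *CAR2*, ornithine transaminase, which breaks arginine down, with 139, 142 and 145 normalized CPM in *mrn1Δ*, against 92.3, 107 and 85.5 in wild-type (log2 fold change 0.58, standard error 0.08, adjusted p = 0.0137). The synthetic genes *ARG1* and *ARG3* had log2 fold changes of -0.38 (adjusted p = 0.167) and -0.36 (adjusted p = 0.227). Without wild-type replicate 1 edgeR called 3 arginine genes, *CAR2* higher and *ARG1* and *ARG56* lower, the falls being -0.47 (adjusted p = 0.036) for *ARG1* and -0.32 (adjusted p = 0.0468) for *ARG56*. Over all tested genes that fit called 47 higher and 27 lower. None of the 9 lysine, 6 histidine, 15 aromatic, 12 threonine and serine, 16 purine or 10 pyrimidine genes tested was called, and their medians were -0.04, -0.12, 0.03, 0.03, 0.06 and -0.06 in that order. The widest values among them were 0.50 (adjusted p = 0.373) for *ARO9*, an aromatic aminotransferase gene, and -0.40 (adjusted p = 0.155) for *IMD2*, which encodes IMP dehydrogenase and which DESeq2 called lower. Of 25 genes of sulfate assimilation and methionine 0 passed edgeR's test and 3 were higher in DESeq2, beside 2.61% of all tested genes. All 3 were transporters: the sulfate permease *SUL2* at 0.64 (DESeq2 adjusted p = 3.4e-04) and the methionine permeases *MUP1* and *MMP1* at 0.34 (DESeq2 adjusted p = 0.0227) and 0.33 (DESeq2 adjusted p = 0.0158). Without wild-type replicate 1 edgeR also called *SUL2*, with an adjusted p of 0.01. When single libraries were omitted, the call of *CAR2* was lost without wild-type replicate 3 and without *mrn1Δ* replicates 1, 2 and 3, each left out alone, where the adjusted p reached 0.101.

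Among the other genes called lower were regulators and enzymes with no common pathway. *STB5*, which encodes a zinc finger transcription factor of multidrug resistance and NADPH supply, had 58.5, 49.8 and 57.8 normalized CPM in *mrn1Δ*, against 90.8, 81.8 and 100.2 in wild-type (log2 fold change -0.72, standard error 0.10, adjusted p = 0.0115). All 3 *mrn1Δ* values lay below the lowest wild-type value. *NIS1*, the gene of a bud neck protein, had 37.1, 35.2 and 40.6 normalized CPM in *mrn1Δ*, against 66.8, 50.6 and 59.4 in wild-type, with the widest spread in wild-type (log2 fold change -0.65, standard error 0.11, adjusted p = 0.0282). *BIO2*, biotin synthase, which completes biotin in the mitochondrion, had 40.1, 39.2 and 40.3 normalized CPM in *mrn1Δ*, against 49.7, 54.9 and 49.7 in wild-type, and it was the only edgeR call among 29 tested genes of vitamin and NAD synthesis and uptake (log2 fold change -0.37, standard error 0.07, adjusted p = 0.0467). *YNL040W*, a gene with similarity to alanyl-tRNA synthetases, had 28.6, 28.8 and 31.1 normalized CPM in *mrn1Δ*, against 39.9, 43.0 and 44.3 in wild-type (log2 fold change -0.53, standard error 0.08, adjusted p = 0.0123). *YNL018C*, an uncharacterised gene that shares reads with similar sequences, had 6.72, 7.66 and 8.18 normalized CPM in *mrn1Δ*, against 14.5, 12.7 and 14.2 in wild-type (log2 fold change -0.88, standard error 0.13, adjusted p = 0.0123). These 5 differences were each within 1 unit on the log2 scale. *VAM10*, a vacuole fusion gene, had 0.26, 0.916 and 0.267 normalized CPM in *mrn1Δ*, against 2.45, 3.02 and 1.82 in wild-type (log2 fold change -2.34, standard error 0.43, adjusted p = 0.0475). It rests on 5 to 73 counts a library, and it overlaps *VPS5*, which like it shares reads and which had 59.7, 60.6 and 63.8 normalized CPM in *mrn1Δ*, against 58.2, 61.2 and 61.2 in wild-type. The call of *VAM10* was lost at an adjusted p of 0.0513 without wild-type replicate 1 of 0.0514 with the length trend removed and of 0.284 in the joint fit of all 12 libraries. On 5 of the 6 libraries the calls of *YNL040W* and *YNL018C* were lost without wild-type replicate 3 and without *mrn1Δ* replicates 1 and 2, each left out alone, where the adjusted p reached 0.104 and 0.1 in that order. Under omission of 1 library the call of *STB5* was lost without wild-type replicate 3 and without *mrn1Δ* replicate 2, each left out alone, where the adjusted p reached 0.078. With 1 library left out at a time, the call of *NIS1* was lost without wild-type replicate 3 and without *mrn1Δ* replicates 1, 2 and 3, each left out alone, where the adjusted p reached 0.172. In such fits the call of *BIO2* was lost without wild-type replicates 2 and 3 and without *mrn1Δ* replicates 1, 2 and 3, each left out alone, where the adjusted p reached 0.359. Among fits on 5 libraries the call of *VAM10* was lost without wild-type replicates 1, 2 and 3 and without *mrn1Δ* replicates 1 and 3, each left out alone, where the adjusted p reached 0.214.

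**Figure D3:**
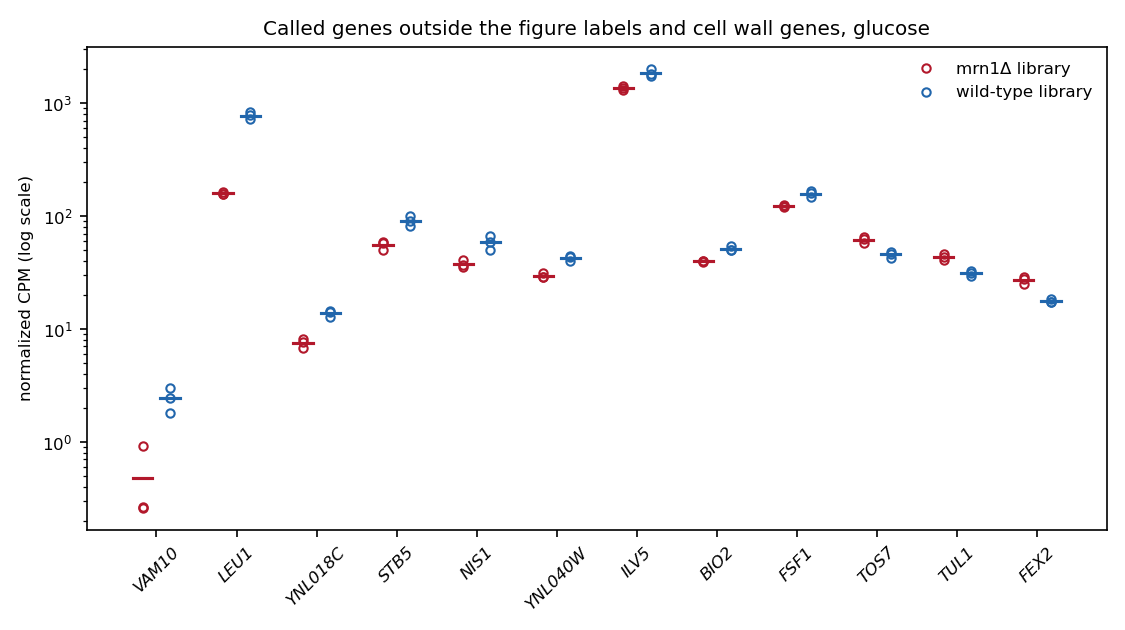
Normalized CPM (vertical axis, log scale) in each library for the 12 called genes that carry neither a figure label nor a cell wall annotation, with *mrn1Δ* in red to the left of wild-type in blue and a line at each mean. In all 12, which were picked by the test on these same libraries, the groups do not overlap, as in all 53 called genes and 21.9% of all tested genes. *LEU1* and *VAM10* have the widest gaps.

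Among phosphate genes the lowest values were those of acid phosphatases. *PHO5*, the major secreted acid phosphatase, which also carries a cell wall annotation, had 21.1, 19.8 and 19.7 normalized CPM in *mrn1Δ*, against 29.0, 27.5 and 28.7 in wild-type (log2 fold change -0.50, standard error 0.08, adjusted p = 0.0231). Its relative *PHO12* had 70.1, 65.3 and 62.4 normalized CPM in *mrn1Δ*, against 178, 108 and 115 in wild-type, a larger difference that did not pass edgeR's test, with the highest value in wild-type replicate 1 (log2 fold change -1.03, standard error 0.19, adjusted p = 0.0639), and *PHO11*, a near-copy of *PHO12*, had a value of -1.01 (adjusted p = 0.332). All 3 genes share reads. Without wild-type replicate 1 the log2 fold change of *PHO12* was -0.76 with an adjusted p of 8.3e-04. Of 25 phosphate genes 1 was called, with a median of 0.00 (0.00 without wild-type replicate 1), and *PHO91*, a vacuolar phosphate transporter gene, stood at the upper end at 0.44 (adjusted p = 0.267). When single libraries were omitted, the call of *PHO5* was lost without wild-type replicate 3 and without *mrn1Δ* replicates 1, 2 and 3, each left out alone, where the adjusted p reached 0.167.

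The 3 genes called higher outside the labels and the cell wall belong to membranes. *TUL1*, a ubiquitin ligase of the Golgi membrane, had 43.8, 46.3 and 40.8 normalized CPM in *mrn1Δ*, against 29.7, 32.8 and 31.1 in wild-type (log2 fold change 0.48, standard error 0.08, adjusted p = 0.0282). *TOS7*, a putative membrane protein gene, had 62.8, 64.8 and 57.7 normalized CPM in *mrn1Δ*, against 46.4, 48.4 and 42.5 in wild-type (log2 fold change 0.43, standard error 0.08, adjusted p = 0.0463). *FEX2*, a fluoride exporter of the plasma membrane, had 27.8, 28.8 and 24.9 normalized CPM in *mrn1Δ*, against 18.4, 17.5 and 17.4 in wild-type (log2 fold change 0.61, standard error 0.09, adjusted p = 0.0149). Reads of *FEX2* are shared, and its near-identical copy *FEX1* had 28.8, 26.2 and 22.3 normalized CPM in *mrn1Δ*, against 17.9, 20.2 and 21.0 in wild-type and was not called, at 0.39 (adjusted p = 0.192), so how the difference divides between the copies is uncertain. In the joint fit of all 12 libraries *FEX2* had an adjusted p of 0.0695. In all 3 the lowest *mrn1Δ* value lay above the highest wild-type value. The groups likewise did not overlap in any of the 53 called genes, nor in 21.9% of all tested genes. On 5 of the 6 libraries the calls of *TUL1*, *TOS7* and *FEX2* were lost without wild-type replicate 3 and without *mrn1Δ* replicates 1 and 2, each left out alone, where the adjusted p reached 0.238, 0.349 and 0.112 in that order.

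In the gene lists of the cell cycle and DNA replication the called genes were *RNR1*, *MCM3*, *MCM7* and *CLB2*, all higher in *mrn1Δ*. Over all tested genes 0.588% were called higher. *RNR1*, the large subunit of ribonucleotide reductase, had 551, 541 and 556 normalized CPM in *mrn1Δ*, against 394, 407 and 357 in wild-type (log2 fold change 0.50, standard error 0.07, adjusted p = 0.0129), and it was the 1 call among 22 tested genes of the G1/S factors SBF and MBF, whose median was 0.02 (-0.03 without wild-type replicate 1). *MCM3* and *MCM7*, subunits of the replicative helicase, had 221, 238 and 235 normalized CPM in *mrn1Δ*, against 142, 151 and 132 in wild-type, and 122, 132 and 126 normalized CPM in *mrn1Δ*, against 83.8, 89.6 and 93.6 in wild-type, in that order (log2 fold change 0.70, standard error 0.07, adjusted p = 0.0021, and log2 fold change 0.50, standard error 0.07, adjusted p = 0.0123). *MCM7* shares reads. These were the 2 calls among 16 tested genes of the M/G1 phase and replication licensing, whose median was 0.07 (0.07 without wild-type replicate 1). After the shift 4 genes of that list were higher and 1 lower, beside 6.79% and 7.83% of all tested genes. The helicase has 4 other subunits, with log2 fold changes of 0.17 (adjusted p = 0.359) for *MCM2*, -0.02 (adjusted p = 0.881) for *MCM4*, 0.04 (adjusted p = 0.784) for *MCM5* and 0.04 (adjusted p = 0.774) for *MCM6*. *CLB2*, the major mitotic cyclin, had 66.5, 66.2 and 57.1 normalized CPM in *mrn1Δ*, against 31.0, 39.6 and 37.0 in wild-type (log2 fold change 0.82, standard error 0.10, adjusted p = 0.0076). The other 21 tested genes of the G2/M cluster that bears its name were not called, and the median of the cluster was -0.02 (-0.08 without wild-type replicate 1). The widest of the others were *ALK1*, a mitotic kinase gene, at 0.37 (adjusted p = 0.206) and *TEM1*, the mitotic exit GTPase, at -0.31 (adjusted p = 0.492). Histone genes had a median of 0.00 (0.04 without wild-type replicate 1) and other cyclins, kinases and inhibitors one of -0.04 (-0.09 without wild-type replicate 1), with 0 calls in each list. In bulk RNA a larger share of cells in a phase and more RNA per cell cannot be told apart. *MCM3* kept a call in all 6 fits that each left out 1 library. Under omission of 1 library the calls of *RNR1* and *MCM7* were lost without wild-type replicate 3 and without *mrn1Δ* replicates 1 and 2, each left out alone, where the adjusted p reached 0.0976 and 0.104 in that order. With 1 library left out at a time, the call of *CLB2* was lost without wild-type replicate 3, where the adjusted p reached 0.0731.

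Sterol and lipid genes had 1 call in each of several lists. *ERG5*, sterol desaturase, had 256, 232 and 214 normalized CPM in *mrn1Δ*, against 123, 139 and 134 in wild-type (log2 fold change 0.82, standard error 0.09, adjusted p = 0.0029), whereas the median of 25 tested ergosterol genes was 0.02 (0.03 without wild-type replicate 1) and the others ran from -0.29 (adjusted p = 0.367) for *ERG28*, a scaffold of sterol enzymes, to 0.38 (adjusted p = 0.172) for *NCP1*, the reductase that serves Erg5 and other cytochromes P450. *AUS1*, a sterol importer that cells use mainly when oxygen is scarce, had 113, 96.5 and 84.2 normalized CPM in *mrn1Δ*, against 60.0, 57.3 and 60.1 in wild-type (log2 fold change 0.72, standard error 0.11, adjusted p = 0.0155), and its adjusted p was 0.0713 with the length trend removed. *FAA3*, a long-chain acyl-CoA synthetase gene that shares reads, had 146, 134 and 127 normalized CPM in *mrn1Δ*, against 83.7, 83.4 and 76.0 in wild-type (log2 fold change 0.74, standard error 0.08, adjusted p = 0.003). *OLE1*, the fatty acid desaturase, had 930.3, 909 and 815 normalized CPM in *mrn1Δ*, against 589, 699 and 653 in wild-type and did not pass, at 0.45 (adjusted p = 0.0767). Of 18 sphingolipid genes 0 passed edgeR's test and 4 were higher in DESeq2, beside 2.61% of all tested genes. These were *LCB1*, *TSC10*, *AUR1* and *CSG2*, with log2 fold changes of 0.45, 0.38, 0.43 and 0.29, and the list median was 0.16 (0.17 without wild-type replicate 1). Without wild-type replicate 1 edgeR called *TSC10*, with an adjusted p of 0.0342. *LCB1* encodes a subunit of serine palmitoyltransferase, the first enzyme of the pathway, *TSC10* the reductase that follows it and *AUR1* the synthase of inositol phosphoceramide. *ERG5* and *FAA3* kept their calls in all 6 fits that each left out 1 library. In such fits the call of *AUS1* was lost without wild-type replicate 3 and without *mrn1Δ* replicate 2, each left out alone, where the adjusted p reached 0.109.

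RNA-binding and RNA decay factors were also looked at, since Mrn1 is one of them. *NAM8*, an RNA-binding splicing factor, had 67.7, 69.7 and 75.8 normalized CPM in *mrn1Δ*, against 36.7, 41.2 and 42.5 in wild-type (log2 fold change 0.82, standard error 0.08, adjusted p = 0.0013). Of the 25 tested RNA-binding proteins 22 had a positive log2 fold change, beside 2671 of all 5785 tested genes, and 1 was called. The list median was 0.23, and it was 0.10 without wild-type replicate 1 and 0.15 with the length trend removed. These genes are long, with a median of 2007 coding bases. *PUB1*, which encodes an abundant poly(U)-binding protein, was not called, at 0.07 (adjusted p = 0.654), and *PUF2* was higher in DESeq2 alone, at 0.46 (DESeq2 adjusted p = 0.0204). *CAF40*, a subunit of the CCR4-NOT deadenylase complex, had 60.6, 60.4 and 56.8 normalized CPM in *mrn1Δ*, against 39.7, 42.9 and 39.8 in wild-type (log2 fold change 0.53, standard error 0.07, adjusted p = 0.0076). The other 28 tested decay factors were not called, and the list median was 0.00 (0.00 without wild-type replicate 1). *LSM3*, a subunit of the ring that activates decapping, marked the lower end at -0.33 (adjusted p = 0.405). Other members of the complex of *CAF40* had log2 fold changes of 0.15 (adjusted p = 0.489) for *CCR4*, 0.08 (adjusted p = 0.658) for *POP2* and 0.21 (adjusted p = 0.314) for *CDC39*. *NAM8* kept a call in all 6 fits that each left out 1 library. Among fits on 5 libraries the call of *CAF40* was lost without wild-type replicate 3 and without *mrn1Δ* replicate 2, each left out alone, where the adjusted p reached 0.0783.

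Amino acid uptake and iron were the lists in which DESeq2 called the most genes beyond those of edgeR. *PTR2*, the di- and tripeptide importer, had 353, 340.3 and 301 normalized CPM in *mrn1Δ*, against 197, 204 and 191 in wild-type (log2 fold change 0.75, standard error 0.08, adjusted p = 0.003) and was the 1 of 18 tested amino acid and peptide uptake genes called by edgeR. DESeq2 called 7 of them higher and 0 lower, beside 2.61% of all genes: *PTR2*, the permeases *AGP2*, *GNP1*, *TAT2*, *HIP1* and *LYP1*, and the oligopeptide transporter *OPT1*. Their log2 fold changes apart from *PTR2* ran from 0.31 for *AGP2* to 0.44 for *GNP1*, and without wild-type replicate 1 DESeq2 called 4, *PTR2*, *GNP1*, *LYP1* and *OPT1*. Of the 18 genes 15 were positive, beside 2671 of all 5785 tested genes, with a median of 0.19 (0.14 without wild-type replicate 1). *SMF1*, a divalent metal transporter, had 88.2, 79.7 and 73.7 normalized CPM in *mrn1Δ*, against 55.5, 57.3 and 51.5 in wild-type (log2 fold change 0.55, standard error 0.09, adjusted p = 0.0201). Of 32 tested iron genes it was the only edgeR call, and DESeq2 called 6 higher and 0 lower, beside 2.61% of all genes called higher. Without wild-type replicate 1 edgeR called 5 of the 32 higher, *SMF1*, *ARN1*, *ARN2*, *FIT1* and *FTH1*, and DESeq2 called 11. Over all tested genes those fits called 47 higher with edgeR, and 135 higher and 60 lower with DESeq2. Those called by DESeq2 with all libraries included the siderophore transporter *ARN1* at 0.58 (DESeq2 adjusted p = 0.0021), the ferric reductase *FRE1* at 0.42 (DESeq2 adjusted p = 0.0053) and the vacuolar ferroxidase *FET5* at 0.32 (DESeq2 adjusted p = 0.0138). The iron regulators *AFT1* and *AFT2* stood at 0.18 (adjusted p = 0.47) and 0.09 (adjusted p = 0.594). *ARN1* was more different without wild-type replicate 1, at 0.76 with an adjusted p of 0.0013 in edgeR's test. *PTR2* kept a call in all 6 fits that each left out 1 library. When single libraries were omitted, the call of *SMF1* was lost without wild-type replicate 3 and without *mrn1Δ* replicates 1 and 2, each left out alone, where the adjusted p reached 0.147.

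*YRO2*, a plasma membrane protein gene that shares reads, had 110.1, 112 and 102 normalized CPM in *mrn1Δ*, against 80.6, 84.7 and 79.5 in wild-type (log2 fold change 0.40, standard error 0.07, adjusted p = 0.0383), the 1 edgeR call among 17 proton pump and ion transport genes. The proton pump itself, *PMA1*, had 13766, 13066 and 11429.8 normalized CPM in *mrn1Δ*, against 9558, 10565 and 8847 in wild-type, and it and the sodium pump *ENA2* were higher in DESeq2, at 0.40 (DESeq2 adjusted p = 0.0065) and 0.51 (DESeq2 adjusted p = 0.0019). The list had a median of 0.22 (0.13 without wild-type replicate 1) and a median coding length of 2457 bases. Multidrug and polyamine transporters had 0 edgeR calls among 21, and 3 were higher in DESeq2, beside 2.61% of all tested genes. Of these 3, *PDR5*, the main drug efflux pump, had 4949, 4836 and 4205 normalized CPM in *mrn1Δ*, against 3364, 3829 and 3219.9 in wild-type, with an adjusted p of 0.122 in edgeR. *PDR1* and *PDR3*, the regulators of *PDR5*, had log2 fold changes of 0.08 (adjusted p = 0.564) and 0.02 (adjusted p = 0.906). Of 21 hexose transporters and sensors tested 0 passed edgeR's test. In DESeq2 *HXT4*, *HXT7* and *HXT9* were higher, at 0.61, 0.59 and 0.69, beside 2.61% of all tested genes, and all 3 of these share reads. Without wild-type replicate 1 edgeR called *HXT4* and *HXT7* too, both with an adjusted p of 0.0342, in a fit with 47 genes called higher over all tested genes. In the secretory pathway 27 of 30 genes had a positive log2 fold change, beside 2671 of all 5785 tested genes. The median of the list was 0.23 (0.20 without wild-type replicate 1) and 0.17 with the length trend removed. Its median coding length was 1743 bases. Those called were *OCH1*, a mannosyltransferase of the Golgi, with 157, 165 and 145 normalized CPM in *mrn1Δ*, against 104, 110.0 and 107 in wild-type (log2 fold change 0.54, standard error 0.07, adjusted p = 0.0115), and *GPI10*, an enzyme that builds the GPI anchor, with 57.9, 56.8 and 51.3 normalized CPM in *mrn1Δ*, against 38.7, 42.5 and 40.2 in wild-type (log2 fold change 0.45, standard error 0.08, adjusted p = 0.0338). The chaperone *KAR2* had a value of 0.34 (DESeq2 adjusted p = 0.0158). On 5 of the 6 libraries the calls of *OCH1* and *GPI10* were lost without wild-type replicate 3 and without *mrn1Δ* replicates 1 and 2, each left out alone, where the adjusted p reached 0.1 and 0.247 in that order. Under omission of 1 library the call of *YRO2* was lost without wild-type replicates 2 and 3 and without *mrn1Δ* replicates 1 and 2, each left out alone, where the adjusted p reached 0.33.

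**Figure D4:**
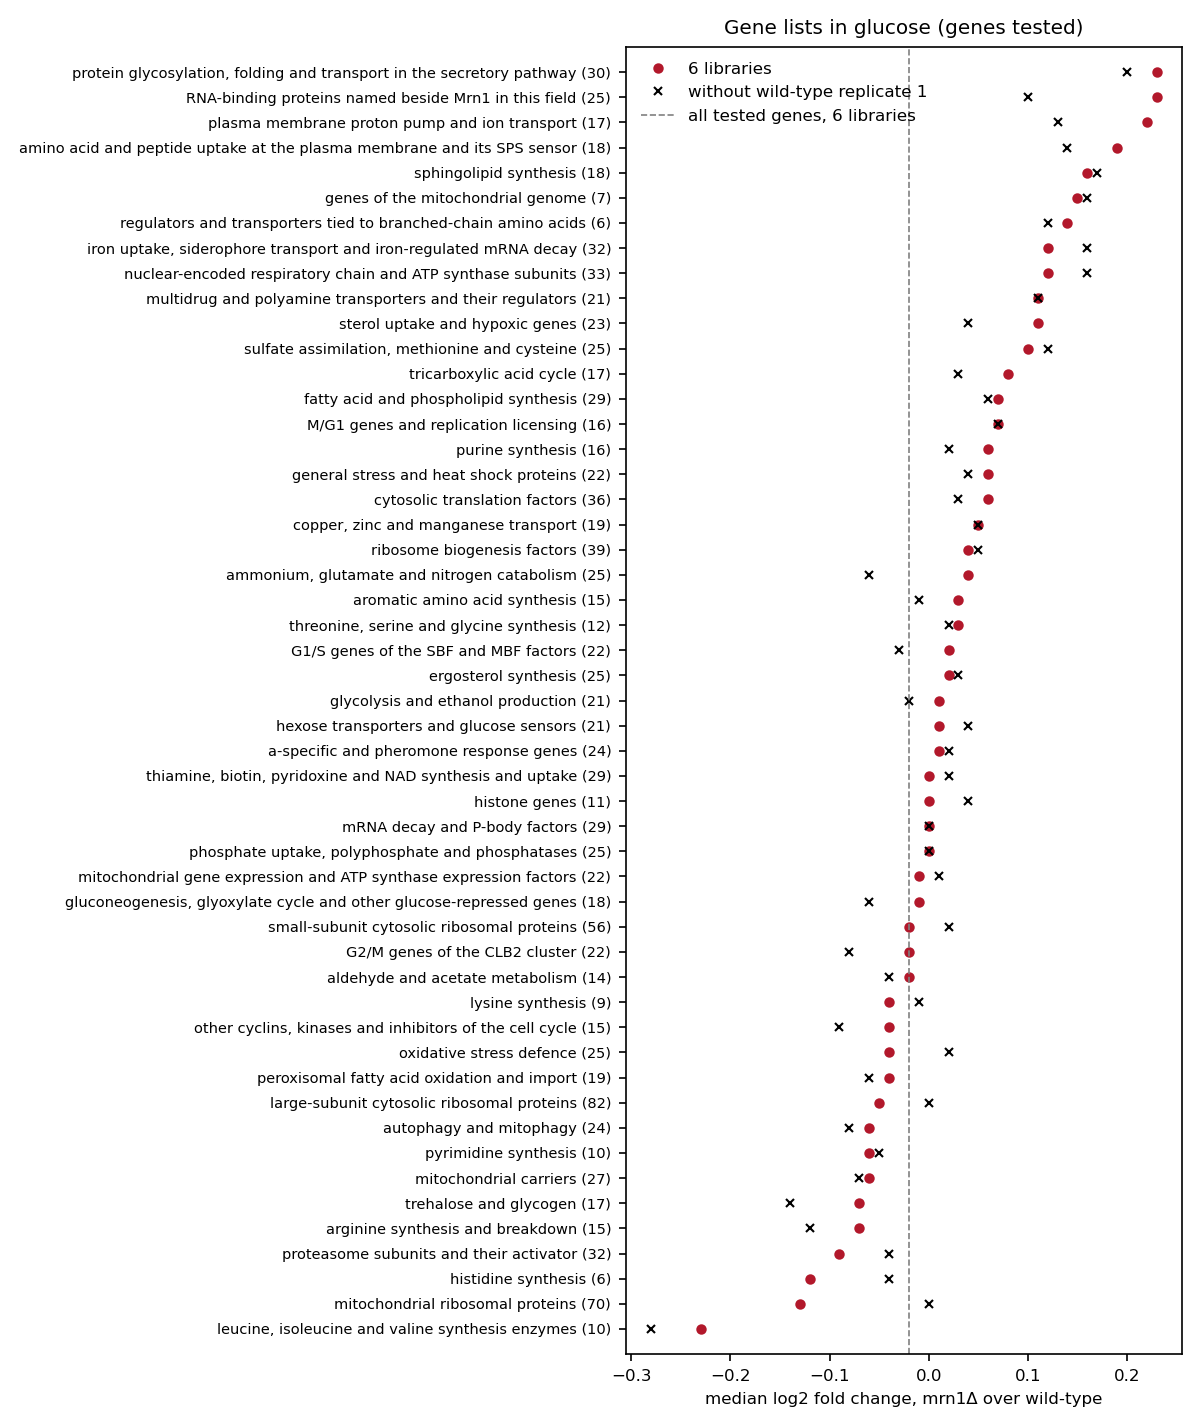
Median log2 fold change of *mrn1Δ* over wild-type (horizontal axis) in 51 functional gene lists, with the number of genes tested beside each name, from all 6 libraries (red) and without wild-type replicate 1 (crosses), and a dashed line at the median of all tested genes, -0.02. Secretory pathway and RNA-binding protein genes have the highest median, 0.23, and RNA-binding proteins are at 0.10 without that replicate, while branched-chain enzymes have the lowest at -0.23.

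Few mitochondrial genes outside amino acid synthesis were called in glucose. *DIC1*, the dicarboxylate carrier, had 34.3, 30.6 and 32.8 normalized CPM in *mrn1Δ*, against 161, 100.3 and 98.3 in wild-type (log2 fold change -1.89, standard error 0.20, adjusted p = 0.0044), with the highest wild-type value in replicate 1, and its log2 fold change was -1.61 without that library. *OAC1* and *FSF1*, described above as carriers, were also called and are not in the list of 27 carriers that holds *DIC1*. The other 26 of that list were not called by edgeR, from -0.57 (adjusted p = 0.343) for *CRC1*, the carnitine carrier, to 0.30 (adjusted p = 0.219) for *PET9*, the main ADP/ATP carrier. *ALD5*, a mitochondrial aldehyde dehydrogenase gene, had 183, 204 and 213 normalized CPM in *mrn1Δ*, against 274, 305 and 291 in wild-type (log2 fold change -0.54, standard error 0.08, adjusted p = 0.0123), the 1 call among 14 aldehyde and acetate genes. Of 33 nuclear-encoded subunits of the respiratory chain and ATP synthase 27 had a positive log2 fold change, beside 2671 of all 5785 tested genes. Their median was 0.12 (0.16 without wild-type replicate 1) and 0.23 with the length trend removed. None of them passed edgeR's test and DESeq2 called 3 higher, *QCR2*, *ATP1* and *ATP2*, at 0.33, 0.41 and 0.32, beside 2.61% of all tested genes. Of the genes of the mitochondrial genome 7 were tested, 0 were called, and the values ran from -0.39 (adjusted p = 0.343) for *VAR1* to 0.33 (adjusted p = 0.398) for *COX1*. Mitochondrial ribosomal proteins had 8 of 70 positive values and a median of -0.13 with all libraries, but 36 of 70 and a median of 0.00 without wild-type replicate 1, and 0 were called. Factors of mitochondrial gene expression had a median of -0.01 (0.01 without wild-type replicate 1), and 17 genes of the tricarboxylic acid cycle had one of 0.08 (0.03 without wild-type replicate 1). EdgeR called 0 of these 17 on the 6 libraries. It called 1 of them lower without wild-type replicate 1 and 1 lower with the length trend removed. Over all tested genes those fits called 27 and 26 lower, in that order. The lowest value among the 17 was that of *CIT2*, at -0.40 (DESeq2 adjusted p = 0.0018). *CIT2* was counted in this list although it encodes the citrate synthase of the glyoxylate cycle. *DIC1* kept a call in all 6 fits that each left out 1 library. With 1 library left out at a time, the call of *ALD5* was lost without wild-type replicate 3 and without *mrn1Δ* replicates 1 and 2, each left out alone, where the adjusted p reached 0.102.

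In 30 of the 51 lists edgeR called no gene, and in 18 neither edgeR nor DESeq2 did. Glycolysis and ethanol production had a median of 0.01 (-0.02 without wild-type replicate 1) over 21 genes, between -0.26 (adjusted p = 0.267) for *ADH1*, the alcohol dehydrogenase of fermentation, and 0.22 (adjusted p = 0.346) for *PDC1*, pyruvate decarboxylase. Ribosomal proteins of the cytosol had medians of -0.02 (0.02 without wild-type replicate 1) for 56 genes of the small subunit and -0.05 (0.00 without wild-type replicate 1) for 82 of the large subunit. General stress and heat shock genes had a median of 0.06 (0.04 without wild-type replicate 1), oxidative stress defence -0.04 (0.02 without wild-type replicate 1), trehalose and glycogen -0.07 (-0.14 without wild-type replicate 1), proteasome subunits -0.09 (-0.04 without wild-type replicate 1) and peroxisomal genes -0.04 (-0.06 without wild-type replicate 1). Glucose-repressed genes, which wild-type cells keep low in this medium, had a median of -0.01 (-0.06 without wild-type replicate 1), and *MAE1*, the mitochondrial malic enzyme, was lower in DESeq2 at -0.31 (DESeq2 adjusted p = 0.0459), while *SUC2*, invertase, was higher at 0.26 (DESeq2 adjusted p = 0.0453). Copper and zinc genes had a median of 0.05 (0.05 without wild-type replicate 1), and DESeq2 called the copies of copper metallothionein, *CUP1-1* and *CUP1-2*, lower at -0.48 (DESeq2 adjusted p = 0.0186) each, in sequences that share reads. Ribosome biogenesis and translation factors had medians of 0.04 (0.05 without wild-type replicate 1) and 0.06 (0.03 without wild-type replicate 1) with 1 DESeq2 call in each, *NOG1* and *DED1*. Among autophagy genes the only edgeR call was *UTH1*, a figure label of the SUN family, with 1965, 1948 and 1824 normalized CPM in *mrn1Δ*, against 1032, 1331 and 1001 in wild-type (log2 fold change 0.77, standard error 0.11, adjusted p = 0.0127), and the core gene *ATG14* had a value of -0.63 (DESeq2 adjusted p = 0.0446). For these lists a missing call does not show that levels were equal, since p without adjustment was under 0.05 at 878 genes and DESeq2 called 152 genes that edgeR did not. In such fits the call of *UTH1* was lost without wild-type replicate 3 and without *mrn1Δ* replicates 1 and 2, each left out alone, where the adjusted p reached 0.101.

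After 20 minutes in ethanol and glycerol the same genotypes differed at many more genes, 394 higher and 454 lower of 5800 tested, or 6.79% and 7.83%. Of the 53 genes called in glucose 52 had a difference of the same sign after the shift, and 35 were called again in the same direction, 22 of the 34 higher and 13 of the 19 lower. The branched-chain genes fell again. After the shift *LEU1* had a log2 fold change of -2.96, *OAC1* of -2.92 and *BAT1* of -2.11, each a larger fall than in glucose by the interaction, with adjusted p-values of 0.0092, 5.3e-04 and 0.0077. In the list 8 of 10 enzymes were called lower after the shift, beside 7.83% of all tested genes, with a median of -0.83. In glucose 4 were called lower, beside 0.328% of all tested genes. The exceptions after the shift were *BAT2* at 0.15 (adjusted p = 0.146) and *ILV6* at -0.20 (adjusted p = 0.0699). *ILV2*, which carries the promoter letters and was not called in glucose, fell by 0.79 on the log2 scale after the shift, and *LEU9* fell by 0.86. The genotype difference itself differed between media for 188 of 5828 genes, 3.23%, in edgeR's test of the interaction. Of the genes called in glucose 13 were among them. In contrast *STB5* and *NIS1*, lower in glucose, had log2 fold changes of -0.10 and -0.03 after the shift, with adjusted p-values of 0.463 and 0.773. The higher genes *MCM3*, *ERG5*, *CLB2* and *FAA3* had log2 fold changes of 0.79, 0.89, 0.82 and 0.69 after the shift and were called again. *UTH1* and *TOS7* were not, at 0.01 (adjusted p = 0.973) and 0.07 (adjusted p = 0.599), and their interaction had adjusted p-values of 0.0517 and 0.0868, so a difference between media was not shown for them. Respiratory chain subunits had 16 of 33 genes called higher after the shift with a median of 0.46, beside 6.79% of all tested genes. In glucose 0 were called, beside 0.588% of all tested genes called higher, with a median of 0.12. Whether this list as a whole differed between media was not tested.

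**Figure D5:**
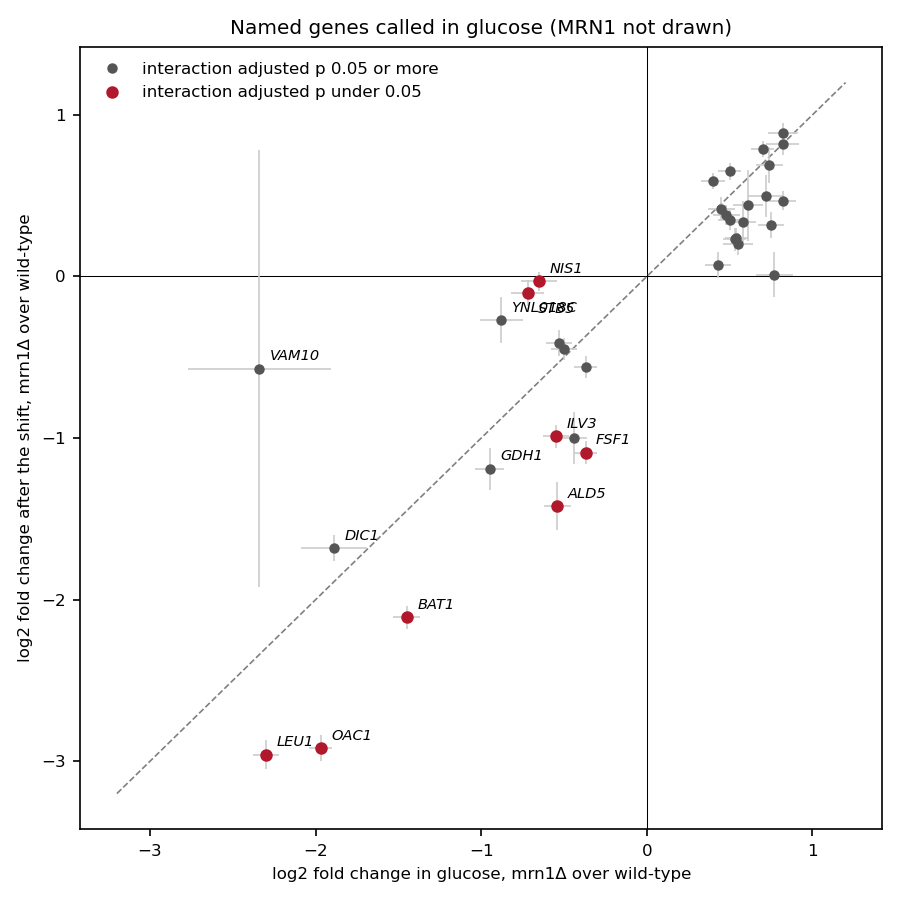
Log2 fold change of *mrn1Δ* over wild-type in glucose (horizontal axis) and after the shift (vertical axis) for 35 called genes named here apart from *MRN1*, with bars of 1 standard error and a dashed line of equal values. The 8 genes in red have an interaction with an adjusted p under 0.05: *LEU1*, *OAC1*, *BAT1*, *FSF1*, *ILV3* and *ALD5* lie below the line, and *STB5* and *NIS1* lie above it near 0. Over all tested genes 3.23% had such an interaction.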

How the data were processed

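RNA-seq of *mrn1Δ* and wild-type yeast in glucose was analysed from the authors' tables, which list TPM and estimated counts by coding sequence. The submitters' notes name kallisto 0.44.0 and the R64 build for the estimated counts the authors deposited, and the TPM the authors deposited are scaled for length within a library. The strand setting is not given in the sources used here. Estimated counts were rounded, and 623 coding sequences had values that were not whole (tolerance 1e-06) and are described as sharing reads. Of 5917 identifiers 5911 matched R64 by systematic name. Counts were filtered by the default expression filter, TMM-scaled and fitted with edgeR 4.0.16 (R 4.3.3), robust quasi-likelihood test, Benjamini-Hochberg adjusted p under 0.05, on the 6 glucose libraries, and on all 12 for the interaction. The scripts were tested on simulated data with 200 changed genes. TPM served only to set levels of genes side by side. Alternatives were DESeq2 1.42.0, upper-quartile scaling, no filter, a minimum of 10 counts per library, a joint fit of all 12 libraries, a replicate block, each library left out, and, chosen after the data were seen, DESeq2 without wild-type replicate 1 and a smooth length trend as offset. Promoter windows were read from the R64 genome. Named genes are all called genes outside the figure labels and cell wall annotation, in each of 51 functional lists the called members, up to 3 others with the lowest p and those at the ends of the range, *MRN1*, its neighbours and markers, and branched-chain genes. Other members of a named gene's complex or pathway, such as *AFT1* and *PDR1*, were added after their values were seen. The members and lists were chosen with earlier results of these data known. Figures used matplotlib 3.10.9.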

Additional observations from a re-analysis of the deposited data

Results flagged for a closer look

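Of the 36 called genes named above, 8 had a genotype difference that itself differed between media in edgeR's quasi-likelihood test of the interaction over all 12 libraries. Over all 5828 genes in that test 188 did, or 3.23%. The 36 were picked by their call in glucose, and the same glucose libraries enter the interaction. The difference is the log2 fold change of *mrn1Δ* over wild-type after the shift minus that in glucose, each group having 3 libraries. In 6 of them the fall was larger after the shift. The log2 fold changes were -2.96 after the shift and -2.30 in glucose for *LEU1* (difference -0.66, adjusted p = 0.0092), -2.92 after the shift and -1.97 in glucose for *OAC1* (difference -0.95, adjusted p = 5.3e-04), -2.11 after the shift and -1.45 in glucose for *BAT1* (difference -0.65, adjusted p = 0.0077) and -1.09 after the shift and -0.37 in glucose for *FSF1* (difference -0.72, adjusted p = 0.0017). They were -1.42 after the shift and -0.54 in glucose for *ALD5* (difference -0.88, adjusted p = 0.0134) and -0.99 after the shift and -0.55 in glucose for *ILV3* (difference -0.44, adjusted p = 0.0473). In the other 2 the fall seen in glucose was not there after the shift, with log2 fold changes of -0.10 after the shift and -0.72 in glucose for *STB5* (difference 0.62, adjusted p = 0.0194) and -0.03 after the shift and -0.65 in glucose for *NIS1* (difference 0.63, adjusted p = 0.0181). Fits that each left out 1 of the 12 libraries called between 81 and 501 genes in this test, where 188 were called with all of them.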

How the results depend on the processing

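None of the 36 named genes changed direction under any alternative tried. DESeq2 kept all 36 calls, also without wild-type replicate 1, the fit without that replicate 35, the length trend fit 34, upper-quartile scaling 34 and the joint fit of 12 libraries 33 (without *ILV5*, *FEX2* and *VAM10*), while the fits without wild-type replicates 2 and 3 kept 31 and 11 and those without *mrn1Δ* replicates 1, 2 and 3 kept 15, 13 and 28. With DESeq2 151 genes were higher, 54 lower and 120 outside the labels and the cell wall, against 34, 19 and 12. In a joint fit of all 12 libraries the counts were 132, 60 and 116. DESeq2 without wild-type replicate 1, chosen after the data were seen, gave 135, 60 and 107, and the length trend fit, chosen likewise, gave 28 outside the labels and the cell wall. Fits on 5 of the 6 libraries gave between 13 and 63 genes higher, between 6 and 27 lower and between 1 and 29 outside the labels and the cell wall. In the interaction DESeq2 called 439 genes where edgeR called 188, and leaving out each library gave between 81 and 501. The cause of these differences was not tested.

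Replicate numbers are shared between genotypes, but same-numbered libraries deviated together with correlations of 0.127, 0.205 and -0.034, so the numbers were not taken as pairs. A replicate block gave 49 genes higher, 22 lower and 21 outside the labels and the cell wall, the interaction had 261, and 50 of the 53 calls were kept.

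With 3 libraries a group and 16231552 to 26542190 counts each, genes near the count floor are measured least precisely, and the call of *VAM10*, on 5 to 73 counts a library, was lost in several fits.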

Other observations

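DESeq2 called 77 higher and 31 lower genes that carry neither a figure label nor a cell wall annotation and that edgeR did not call. The 3 named here were chosen after their values were seen and stand for no group of genes. *IST2*, a tether between the endoplasmic reticulum and the plasma membrane, had 461, 475 and 392 normalized CPM in *mrn1Δ*, against 263, 342 and 318 in wild-type, a DESeq2 log2 fold change of 0.52 (DESeq2 adjusted p = 0.0014). Its edgeR log2 fold change was 0.42 (edgeR adjusted p = 0.0686) without wild-type replicate 1, with an edgeR adjusted p of 0.0452 when the length trend was removed. *TCB3*, a tricalbin gene, had 954, 973 and 775 normalized CPM in *mrn1Δ*, against 537, 710.3 and 650.4 in wild-type, a DESeq2 log2 fold change of 0.51 (DESeq2 adjusted p = 0.0051), and its edgeR value was 0.40 (edgeR adjusted p = 0.117) without wild-type replicate 1, with an edgeR adjusted p of 0.0863 when the length trend was removed. *EDE1*, an early endocytosis gene, had 574, 603 and 505 normalized CPM in *mrn1Δ*, against 347, 442 and 400.3 in wild-type, a DESeq2 log2 fold change of 0.50 (DESeq2 adjusted p = 0.0011), and its edgeR value was 0.41 (edgeR adjusted p = 0.0676) without wild-type replicate 1, with an edgeR adjusted p of 0.0452 when the length trend was removed. All 3 are long, with coding lengths of 2841 bases for *IST2*, 4638 for *TCB3* and 4146 for *EDE1*, and wild-type replicate 1 was the lowest of the 6 libraries for each.

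Reading frames of Ty retrotransposons had a median log2 fold change of 0.07 over 66 tested, of which 64 share reads, and edgeR called 0 of them with all libraries, but 4 lower with the length trend removed. That fit called 26 genes lower over all tested genes.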
